A study of Mus musculus with 10 samples.

Results

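The genes described here are the replication-dependent histone genes of the mouse, taken as every gene symbol of the form Hist1h to Hist4h with at least 1 count in any immunopurified library. Of 63 such symbols in the count tables, 61 qualified, among 22641 symbols with a count in any immunopurified library and 32531 listed. Hist1h2ah and Hist3h2a had no count in any of the 9 immunopurified libraries. For counted reads this allows at most 0.00879 CPM (counts scaled to a library total of 1000000, here 3 counts over the summed 341192582). Reads not uniquely aligned or ambiguous between genes were counted for no gene, so this floor does not bound the level of the message. The annotated span of Hist3h2a overlaps that of Trim17. The 61 genes comprised 6 of linker histone H1, 14 of H2A, 18 of H2B, 10 of H3 and 13 of H4. Hist3h2bb-ps, counted here with H2B, is annotated as a transcribed pseudogene and stays in the counts below. By the RefSeq gene table for GRCm38.p6, 50 of them lie in the Hist1 cluster on chromosome 13, 8 in Hist2 on chromosome 3, 2 in Hist3 on chromosome 11 and 1, Hist4h4, on chromosome 6.

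Histone proteins package DNA: H2A, H2B, H3 and H4 form the core of the nucleosome, and H1 binds the DNA between cores. Most cells make these histones during DNA replication, from many near-identical genes without introns, whose messages end in a stem-loop in place of a poly(A) tail. That stem-loop is bound by Slbp, which takes part in processing, translation and decay of the message. Neurons no longer divide, and their chromatin is known to take up replication-independent variants such as H3.3, made from H3f3a and H3f3b, with polyadenylated messages. Some members of the replication-dependent family, among them Hist2h2be and Hist1h2bc, can also give polyadenylated transcripts.

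The libraries came from whole striatum of mice of the line Chat-TRAP DW167, in which EGFP fused to the ribosomal protein Rpl10a tags ribosomes under a Chat transgene, so that cholinergic interneurons carry the tag. All 10 libraries, controls included, came from this line. The treatment groups (saline self-administration, cocaine self-administration, and animals labelled yoked control) each had 3 libraries of immunopurified ribosome-bound RNA, and 1 further library was total RNA of saline animals (the input). Exact age, dose, duration and what the yoked animals received are not stated in the labels, nor is whether a library came from 1 animal or from a pool, so p-values measure only the spread between these libraries. The animals were adult, per the design text, which sets saline beside cocaine in striatal neurons of this line.

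Gene counts ranged from 24526765 to 75220922 per immunopurified library, and the input held 40912230. The 10 markers of cholinergic neurons summed to 4267 to 5585 CPM after immunopurification and 114 CPM in the input. Saline libraries were run on lane 3, cocaine and yoked on lane 4 and the input on lane 5, so a lane difference and a group difference cannot be told apart wherever saline or the input takes part. The libraries numbered 2 stood apart from the others: each differed from its group partners by a chi-square per degree of freedom of 193 or more, against 41.0 to 66.7 between libraries 1 and 3 of a group. The summed level and the treatment comparisons are therefore given with and without them. Reads of histone genes are shared among near-identical copies, and reads not uniquely aligned were counted for no gene. They made up 36.3% to 57.1% of the reads in an immunopurified library and 35.4% in the input. The share was 56.2% in cocaine library 2, against 36.4% in saline library 2 and 36.3% in yoked library 2. It was highest in yoked library 3, at 57.1%. How many of the reads not uniquely aligned came from histone genes was not measured, so values for single histone genes are uncertain.

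The upstream sequences show what the family shares by histone type. RefSeq promoter windows for GRCm38.p6 (250 bases before and 50 after the annotated start) were given for 55 of the 61 genes, as 56 windows. The 120 bases before the start follow for the gene with the highest level of each type, and for Hist1h2bb and Hist1h4c, which carry an octamer and an H4 element. Each reads 5′ to 3′ on the gene's strand, and capitals mark matches on either strand. The motifs searched were the TATA box TATAAA; the CCAAT box, spelled as its name; the octamer ATTTGCAT, the element bound by Oct1; the H1 box AAACACA; and the H4 element GGTCCG.
Hist1h1e (chr13:23622559-23622678, minus strand): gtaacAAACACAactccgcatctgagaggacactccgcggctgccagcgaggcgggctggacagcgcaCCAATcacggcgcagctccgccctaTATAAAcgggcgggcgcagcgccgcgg
Hist2h2ab (chr3:96219765-96219884, plus strand): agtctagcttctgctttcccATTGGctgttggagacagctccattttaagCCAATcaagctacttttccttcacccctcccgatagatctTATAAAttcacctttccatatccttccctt
Hist3h2ba (chr11:58948791-58948910, plus strand): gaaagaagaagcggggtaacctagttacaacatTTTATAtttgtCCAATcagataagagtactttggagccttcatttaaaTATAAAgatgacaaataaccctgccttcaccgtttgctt
Hist1h2bb (chr13:23746614-23746733, plus strand): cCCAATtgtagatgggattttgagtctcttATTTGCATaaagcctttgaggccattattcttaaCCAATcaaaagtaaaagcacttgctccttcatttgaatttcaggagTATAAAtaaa
Hist1h3e (chr13:23562386-23562505, minus strand): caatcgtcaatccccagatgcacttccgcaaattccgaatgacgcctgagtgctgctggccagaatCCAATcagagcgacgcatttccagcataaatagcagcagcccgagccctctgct
Hist1h4d (chr13:23581448-23581567, plus strand): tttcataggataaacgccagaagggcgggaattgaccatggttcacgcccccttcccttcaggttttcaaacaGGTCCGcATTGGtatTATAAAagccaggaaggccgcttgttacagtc
Hist1h4c (chr13:23698459-23698578, minus strand): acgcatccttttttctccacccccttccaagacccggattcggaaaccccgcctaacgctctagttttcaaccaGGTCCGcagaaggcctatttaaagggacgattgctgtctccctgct

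CCAAT occurred in 83.9% of the 56 member windows and in 37.4% of all 32851 windows of the table. By type, every window of H1 (6), H2A (14), H2B (16) and H3 (8) held it, and 3 of 12 windows of H4. TATAAA stood in 57.1% of member windows and 13.6% of all windows. Matches on either strand anywhere in a window were counted, so this share does not give a position. In Hist1h1e its first base lay 27 bases before the start, in Hist1h4d 32 bases and in Hist1h2bb 10 bases. Hist1h3e and Hist1h4c showed none in the 120 bases printed. The octamer ATTTGCAT was found in 7 of 16 H2B windows and 5 of 14 H2A windows, in no window of the other types, and in 1.74% of all windows. AAACACA stood in 5 of 6 H1, 2 of 14 H2A and 2 of 16 H2B windows, and in 7.18% of all windows. GGTCCG stood in 11 of 12 H4, 1 of 16 H2B and 1 of 8 H3 windows, and in 8.25% of all windows. These last motifs were chosen after the sequences had been seen. A CCAAT and a GGTCCG match overlapped in 1 member window, and no other pair of these motifs overlapped. A match is a description of letters, not a binding site. Among the 55 genes with a promoter window, 7 pairs of an H2A and an H2B gene were divergent, with 163 to 280 bases between their starts. Both members of a pair share the stretch between them, so a match there can be counted in both windows. The octamer 59 bases before the start of Hist1h2bg, for example, lies in the 179 bases that it shares with Hist1h2ae. Hist1h2bc and Hist2h2be had no window and no strand given, so pairs that they may form were not counted. In the pair Hist1h2ak and Hist1h2bn, 163 bases apart, the H2A gene measured 2.29 CPM as a mean of the 9 libraries and the H2B gene 0.259 CPM. This pair was the exception: in every other pair the H2B gene had the higher mean. Hist1h2bg, for example, measured 1.53 CPM and its H2A partner Hist1h2ae 0.125 CPM. In the pair Hist1h2ba and Hist1h2aa this order rested on 1 and 2 counts.

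Few histone genes carried most of the reads. The mean level over the 9 immunopurified libraries was at least 10 CPM for 3 genes and at least 1 CPM for 19, and below 0.1 CPM for 18. A count was present in every immunopurified library for 33 genes and in 1 library only for 2. Hist1h2aa, Hist1h2ba and Hist1h1t, histones of the male germ line, measured 0.0035, 0.0045 and 0.0217 CPM. The filter on low counts kept 36 genes for testing (5 of H1, 5 of H2A, 14 of H2B, 3 of H3 and 9 of H4). The other 25 had 1 to 70 counts in all 9 libraries together, a median of 10, and 0.713% of all histone counts. A gene could pass through the group in which it was high, so the 36 do not stand for all 61.

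Hist1h4d, a gene of core histone H4 (chromosome 13, 23581568 to 23581969), had the highest level. It measured 124, 98.6 and 120 CPM in saline libraries 1 to 3, 174, 48.5 and 82.1 CPM in the cocaine libraries, 140, 129 and 109 CPM in the yoked libraries and 67.8 CPM in the input. The cocaine libraries held both its highest and its lowest value and so overlapped both other groups. Its share of all histone CPM was 44.8% to 53.2% after immunopurification and 39.8% in the input. Per kilobase of its annotated span it reached 284 ± 89.1 CPM (mean and SD of 9 libraries).

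Next per kilobase came Hist1h1e, a linker histone gene, at 43.5 ± 11.4, Hist3h2ba, an H2B gene on chromosome 11, at 25.7 ± 7.53, and the H4 genes Hist2h4 at 19.3 ± 8.27 and Hist1h4c at 14.9 ± 5.09 CPM per kilobase. The linker histone gene Hist1h1c measured 8.11 ± 3.87 CPM per kilobase and the H2A gene Hist2h2ab 5.07 ± 1.41. In this order Hist1h4d differed from the next gene by more than both SDs together, and each of the other genes named differed from the next by less than that. Of the 10 genes highest in CPM, Hist2h2be, Hist1h2be and Hist1h2bc, all H2B genes, have annotated spans of 2667, 37455 and 8282 bases and were left out of this order.

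Each type had a leading gene. Hist1h1e held 67.6% to 85.3% of the H1 reads per immunopurified library, Hist1h4d 83.6% to 89.2% of the H4 reads, and Hist1h3e, which encodes H3, 47.4% to 77.2% of the H3 reads. Hist2h2ab led H2A with 25.2% to 52.6%, and Hist3h2ba led H2B with 22.1% to 34.0%. The H1 and H4 reads thus rested mostly on 1 gene each, and the H2A and H2B reads were spread over several.

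Summed over the 61 genes, the level was 249, 201 and 237 CPM in saline libraries 1 to 3, 336, 108 and 170 CPM in the cocaine libraries, 285, 243 and 209 CPM in the yoked libraries and 170 CPM in the input. The cocaine group contained the highest and the lowest library of all 9. Group means were 229 ± 25.0 CPM for saline, 205 ± 118 CPM for cocaine and 245 ± 38.0 CPM for yoked (SD, n = 3), so the differences between means were smaller than the spread within the cocaine group. Without the 3 libraries numbered 2, the means were 243, 253 and 247 CPM. Without Hist1h4d, the sums were 125, 102 and 117 CPM for saline, 161, 59.7 and 87.9 CPM for cocaine and 144, 114 and 99.1 CPM for yoked, in the same order of libraries within the cocaine group.

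**Figure D1:**
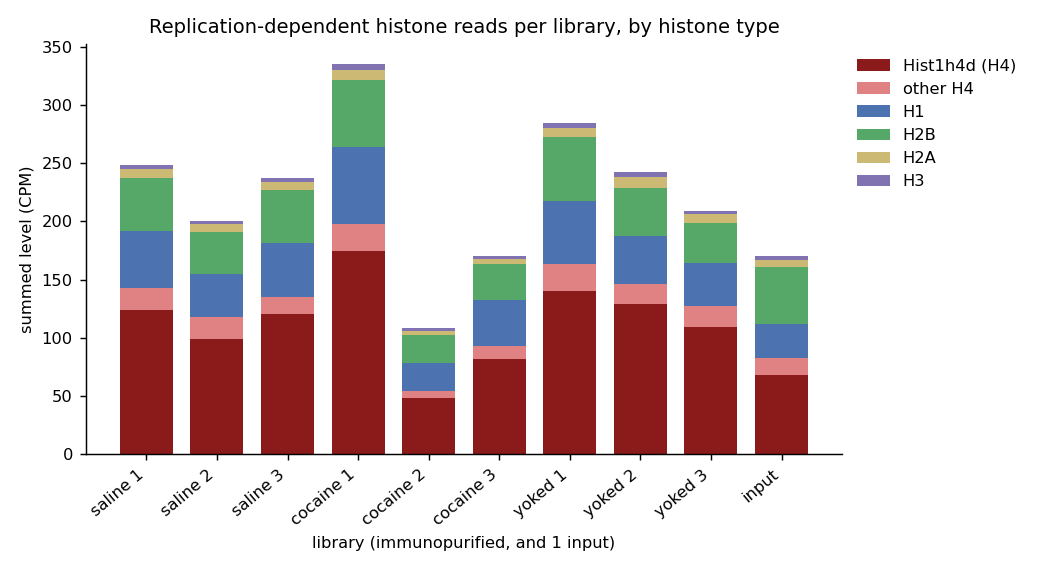
Stacked bars give the summed level in CPM of the 61 histone genes in each of the 9 immunopurified libraries and the input, split by histone type with Hist1h4d apart. Cocaine library 1 reaches 336 CPM and cocaine library 2 reaches 108 CPM, and Hist1h4d makes up 44.8% to 53.2% of each immunopurified bar.

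Every type showed the wide cocaine group. H4 summed to 198, 54.3 and 92.9 CPM in cocaine libraries 1 to 3, against 143, 118 and 135 CPM in saline and 163, 146 and 127 CPM in yoked. For H1 the cocaine libraries gave 66.2, 24.3 and 39.2 CPM, the saline libraries 36.8 to 48.4 CPM and the yoked libraries 37.6 to 54.3 CPM. H2B measured 57.1, 24.1 and 31.1 CPM after cocaine, 35.9 to 46.2 CPM in saline and 33.9 to 54.6 CPM in yoked libraries. In each of these types cocaine library 1 lay above, and cocaine library 2 below, all libraries of the other groups. H2A gave 8.73, 3.03 and 4.54 CPM after cocaine, 6.84 to 7.69 CPM in saline and 7.50 to 9.32 CPM in yoked libraries. H3 gave 5.50, 2.45 and 2.20 CPM after cocaine, 2.93 to 3.40 CPM in saline and 2.48 to 4.64 CPM in yoked libraries. In H3 the lowest library was cocaine library 3 rather than 2.

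The highest cocaine library exceeded the lowest 3.10-fold, against 1.24-fold in saline and 1.36-fold in yoked. The coefficient of variation of the sum was 57.5% in the cocaine group, 10.9% in saline and 15.5% in yoked, and no test of this difference in spread was run. Over the 9 libraries, protein-coding lists related to histones and to S phase varied less, and some other lists as much. Within the cocaine group every list varied less than the histone sum. The most variable list there was that of blood markers, at 43.8%, which summed to only 0.399 to 1.05 CPM. The 11 replication-independent histone genes, among them H3f3b and H2afy, summed to 353 to 449 CPM, with a coefficient of variation of 8.41% over the 9 libraries against 28.9% for the replication-dependent genes. The 18 genes of histone message processing and decay varied by 5.72% and the 19 histone chaperones by 6.73%. For the 22 genes of S phase and proliferation, which summed to 44.5 to 55.6 CPM, the coefficient was 8.12%, and the 3 cocaine libraries lay within 54.1 to 54.6 CPM. The coefficient over the 9 libraries was 32.1% for noncoding RNAs listed as lacking a poly(A) tail, a sum that was nearly all Malat1. It was 29.9% for oligodendrocyte markers and 32.8% for endothelial and mural cell markers. The last summed to 32.9 CPM in yoked library 2 and to 13.9 to 19.8 CPM in the other libraries. Within the cocaine group these lists varied by 33.3%, 31.2% and 7.68%.

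**Figure D2:**
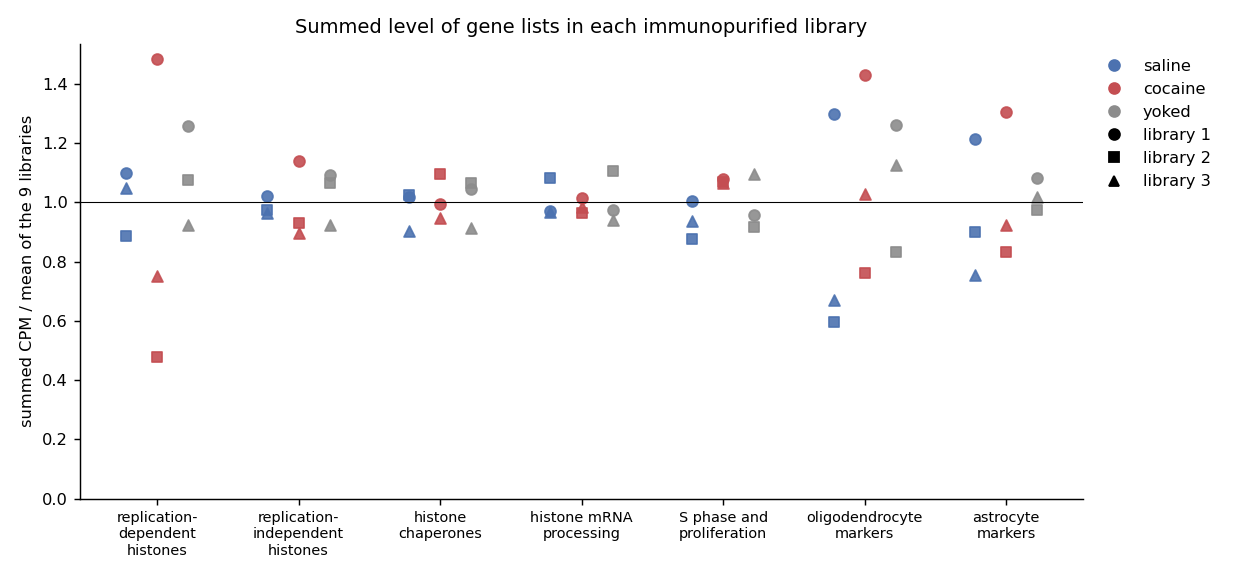
Points give the summed CPM of a gene list in each immunopurified library divided by the mean of the 9 libraries, coloured by treatment and shaped by library number. Replication-dependent histones spread widely in the cocaine group (336 to 108 CPM), while replication-independent histones stay within 353 to 449 CPM, and oligodendrocyte and astrocyte markers are highest in the libraries numbered 1.

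Markers of other cell types also differed between these libraries. In each group the library numbered 1 had the highest histone sum, and also the highest sum of oligodendrocyte markers (488 against 224 and 252 CPM in saline, 538 against 287 and 387 in cocaine, 475 against 313 and 424 in yoked, 2729 CPM in the input). The 8 astrocyte markers followed the same order for library 1, with 502, 540 and 448 CPM in the libraries numbered 1 against 312 to 421 CPM in the others. Spiny projection neuron markers were at 1054 to 1963 CPM and 8054 CPM in the input, and saline and cocaine library 1 held the highest sum of their groups. Microglial markers summed to 11.7 CPM in cocaine library 2 and to 18.9 to 27.6 CPM in the other 8 libraries. Cocaine library 2 was also the most deeply sequenced, at 75220922 counts, and cocaine library 1 the least, at 24526765. In the 8 cell type lists 0 genes were called in any comparison (edgeR). The lists held 1 (blood) to 12 (spiny projection neurons) tested genes. In cocaine against saline 1 gene had an unadjusted p under 0.05, as 5.28% of all genes did. In cocaine against yoked and yoked against saline 0 did, against 2.61% and 2.18% of all genes. The gene was Mobp, of the 8 oligodendrocyte markers, at 25.1 ± 11.4 CPM in saline and 44.3 ± 7.98 CPM after cocaine. The part of these differences in the histone levels was not tested. In bulk RNA, a change in the number of cells of a type and a change in RNA per cell cannot be told apart.

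Gene by gene, cocaine library 1 held the highest CPM of the 9 libraries for 12 of the 36 tested genes (33.3%), whereas it did so for 7.35% of all tested genes. Yoked library 1 held the highest for 7 (19.4%), against 5.18%. Cocaine library 2 held the lowest for 17 of 36 (47.2%), against 25.0% of all tested genes, and cocaine library 3 for 7 (19.4%), against 4.01%. The lowest values of cocaine library 2 included Hist2h4, at 1.21 CPM against 5.29 to 11.7 CPM elsewhere, and Hist1h2bb, at 0.0532 CPM against 0.619 to 3.59 CPM. Hist1h2bc was an exception: its highest value, 5.46 CPM, was in cocaine library 2. Over the 630 pairs of tested members, the median Pearson correlation of their levels across the 9 libraries was 0.45, and 85.2% of pairs correlated positively. This is a description only, since the pairs share the same 9 libraries, their depth and their composition.

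**Figure D3:**
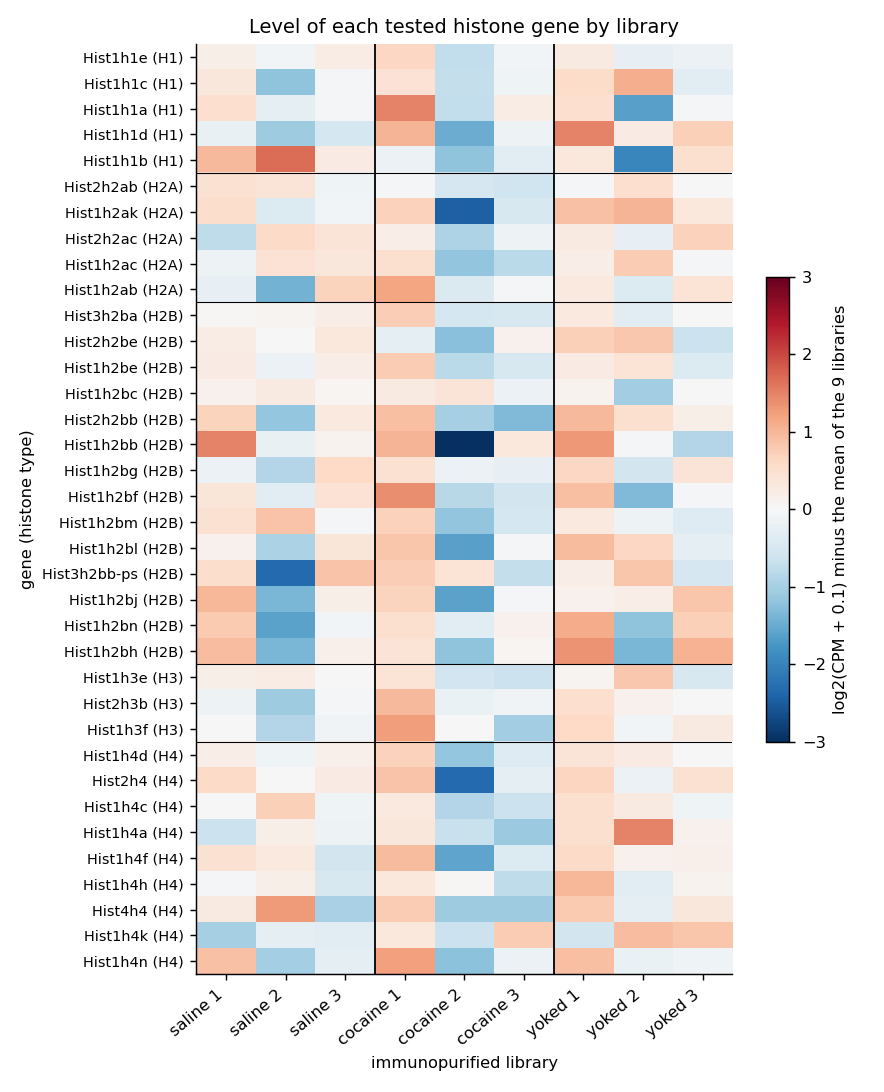
Colours give log2(CPM + 0.1) of each of the 36 tested genes minus its mean over the 9 immunopurified libraries, with genes in rows by histone type and libraries in columns. The column of cocaine library 1 is mostly above the mean and that of cocaine library 2 mostly below, with Hist1h2bc among the exceptions.

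Cocaine was compared with saline to see whether self-administration of the drug changed these messages. No histone gene passed the test: 0 of 36 were called at an adjusted p under 0.05 (edgeR's quasi-likelihood test, Benjamini-Hochberg adjustment over 14989 genes; percent of all genes called 0), and DESeq2 also called 0. At an unadjusted p under 0.05 there were 0 of the 36, against 5.28% of all genes. The estimate lay above 0 for 15 genes and below 0 for 21, with a median log2 fold change of −0.13, beside 0.0049 for all genes, of which 49.4% lay below 0. Leaving out single libraries moved the median between −0.77 (without cocaine library 1) and 0.16 (without cocaine library 2). It was −0.24 without saline library 2, 0.055 without saline library 1, 0.10 without cocaine library 3 and 0.019 without all 3 libraries numbered 2.

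The widest estimate belonged to Hist1h1b, a linker histone gene, at −2.08 ± 1.34 (log2 fold change and SE; adjusted p = 0.853, edgeR). It measured 0.664, 1.15 and 0.356 CPM in saline and 0.245, 0.0665 and 0.204 CPM in cocaine libraries. These groups did not overlap, which was so for 1 of the 36 genes in the direction of lower values, against 5.40% of all genes, and for 0 in the other direction, against 4.88%. At these levels a value rests on few reads.

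Hist1h4c was at 6.32 ± 2.17 CPM in saline and 4.24 ± 1.99 CPM after cocaine (SD, n = 3), a log2 fold change of −0.57 ± 0.41. The H2B gene Hist2h2be was at 9.06 ± 1.08 and 6.17 ± 2.75 CPM, −0.56 ± 0.41. On the other side stood the linker histone gene Hist1h1d at 0.76 ± 0.82, Hist1h4k (H4) at 1.20 ± 1.32 and Hist2h3b (H3) at 0.83 ± 1.02. None of these 5 estimates exceeded 1.5 times its SE, and all adjusted p lay at 0.866 or above (edgeR). The 3 most abundant genes were close to 0: Hist1h4d −0.17 (95% interval −0.85 to 0.52), Hist1h1e −0.08 (−0.69 to 0.53) and Hist3h2ba −0.06 (−0.80 to 0.68).

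Cocaine against yoked sets drug taken by the animal beside the yoked condition. Again 0 of 36 genes were called by edgeR or DESeq2 (percent of all genes called 0), and 0 had an unadjusted p under 0.05, against 2.61% of all genes. Estimates lay below 0 for 27 genes and above 0 for 9, with a median of −0.42, while 49.8% of all genes lay below 0 with a median of 0.0011. All 9 tested H4 genes were below 0 (median −0.46), as were 10 of 14 H2B, 4 of 5 H2A, 3 of 5 H1 and 1 of 3 H3 genes. Cocaine library 2 carried much of this count. Without it, 20 genes lay below 0 and 16 above, the overall median was −0.071, and 4 of 9 H4 genes were below 0. Without cocaine library 1, on the other hand, 35 of 37 genes lay below 0 with a median of −0.86, and the median was −0.23 without cocaine library 3 and −0.19 without yoked library 1. Without all 3 libraries numbered 2, 20 of 36 genes lay below 0 (median −0.042).

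Hist2h2be had the smallest p, unadjusted 0.0781 and adjusted 0.9997 (edgeR). It measured 6.52, 3.26 and 8.72 CPM after cocaine and 13.2, 14.0 and 5.02 CPM in yoked libraries, a log2 fold change of −0.78 ± 0.41. Yoked library 3 lay below 2 of the cocaine libraries, so the groups overlapped. The H2A gene Hist1h2ak had an estimate of −1.07 ± 0.73 and the H4 gene Hist1h4a one of −1.25 ± 0.89. Hist1h1a, at 0.78 ± 0.73, Hist1h2bc, at 0.44 ± 0.43, and Hist1h2bf, at 0.26 ± 0.87, lay on the other side. Groups were free of overlap for 0 of the 36 genes in either direction, against 3.37% (lower) and 3.42% (higher) of all genes. Hist1h4d was at −0.29 (95% interval −0.98 to 0.39), Hist1h1e at 0.08 (−0.54 to 0.69) and Hist3h2ba at 0.04 (−0.71 to 0.78).

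Yoked against saline compared the groups that did not self-administer cocaine. None of the 36 genes was called by either tool (percent of all genes called 0), and 0 had an unadjusted p under 0.05, against 2.18% of all genes. Estimates were above 0 for 24 genes and below 0 for 12 (median 0.16), whereas 52.1% of all genes lay below 0. The median was 0.019 without yoked library 1, 0.35 without yoked library 2 and 0.098 without saline library 2. Without all 3 libraries numbered 2 it was 0.15, with 24 of 36 genes above 0, among them all 9 of H4, against 7 of 9 with every library. Yoked and cocaine were both set against the same saline libraries, so their estimates are not independent of each other.

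The smallest p in this comparison was that of Hist1h1d (unadjusted 0.0734, adjusted 0.999, edgeR). It measured 0.937, 0.477 and 0.736 CPM in saline and 3.31, 1.35 and 1.89 CPM in yoked libraries, a log2 fold change of 1.60 ± 0.83. Hist1h1d and Hist2h3b were the 2 of 36 genes whose yoked libraries all lay above the saline ones, against 4.30% of all genes, and 0 lay wholly below, against 2.74%. Hist2h3b measured 0.390, 0.159 and 0.428 CPM in saline and 0.673, 0.494 and 0.437 CPM in yoked libraries. Hist1h1c was at 0.70 ± 0.48 and Hist1h4k at 1.58 ± 1.32, while Hist1h1b (−1.36 ± 1.30), Hist1h2bc (−0.39 ± 0.43) and the H2B gene Hist1h2bm (−0.57 ± 0.81) lay below 0. Hist1h4d, Hist1h1e and Hist3h2ba were at 0.13, −0.16 and −0.09.

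A test for any difference among the 3 treatments called 0 of 36 genes and 0 of all genes (edgeR; percent of all genes called 0), with 0 and 419 at an unadjusted p under 0.05. Its smallest p among the histone genes was 0.181, for Hist1h1d. The intervals were wide: the median distance from an estimate to the end of its 95% interval was 1.88 in cocaine against saline and 1.87 in the other comparisons for the histone genes, and 0.64 for all genes. An estimate of up to that size in a typical histone gene could therefore not reach an unadjusted p under 0.05 (edgeR). Calls needed an adjusted p, so larger differences could be missed as well. Intervals of the most abundant genes were narrower, such as −0.85 to 0.52 for Hist1h4d in cocaine against saline.

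**Figure D4:**
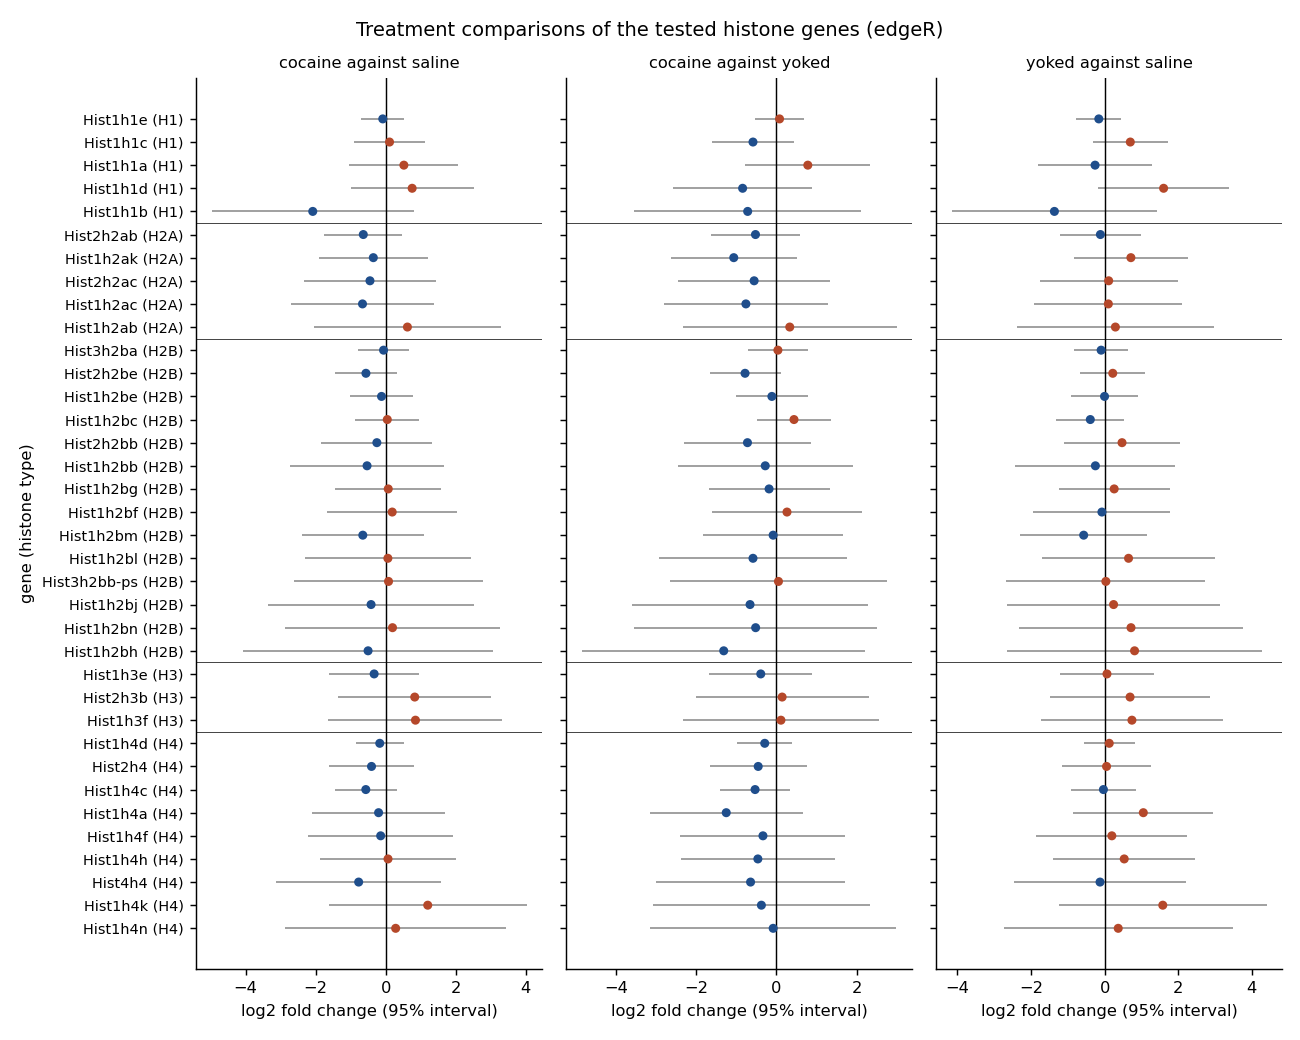
Points give the edgeR log2 fold change and lines its 95% interval for the 36 tested genes, by histone type, in the 3 treatment comparisons, with estimates below 0 in blue. Every line crosses 0, and in cocaine against yoked 27 of 36 points, including all 9 of H4, lie below 0.

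Within each library number the direction of the difference changed. For cocaine against saline, 7 of 36 genes were lower after cocaine in the libraries numbered 1, 26 in those numbered 2 and 29 in those numbered 3, and the log2 ratio of the histone sums was 0.43, −0.89 and −0.48. The same shares over all tested genes were 50.9%, 53.1% and 45.7%. For cocaine against yoked, 16, 27 and 30 of 36 genes were lower, with log2 ratios of 0.24, −1.17 and −0.29, beside 48.1%, 56.8% and 43.6% of all genes. Cocaine library 1 thus lay above, and cocaine libraries 2 and 3 below, the libraries of the same number in both other groups. In yoked against saline the ratios were 0.19, 0.27 and −0.18, with 9, 13 and 19 of 36 genes lower, beside 53.2%, 46.2% and 49.9% of all genes. By type, the median of the H4 genes in cocaine against yoked was 0.20, −1.41 and −0.57 for numbers 1 to 3, and that of H2A 0.00056, −1.001 and −0.75. The H1 genes gave −0.12, −0.50 and 0.08. The labels do not say that libraries of the same number belong together.

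The input comparison asked how far ribosome-bound RNA of tagged cells held these messages relative to total striatal RNA. The summed level of the saline libraries exceeded the input by 0.42 ± 0.16 on the log2 scale (SD, n = 3), with 0.67 ± 0.14 for H4, 0.59 ± 0.22 for H1, 0.25 ± 0.08 for H2A, 0.00065 ± 0.11 for H3 and −0.23 ± 0.20 for H2B. Of 29 genes with at least 20 counts on either side, 11 lay above the input in all 3 saline libraries (37.9%, against 35.8% of 15888 genes) and 8 below (27.6%, against 44.9%). Their median log2 ratio was 0.13 ± 0.18 (SD of the library medians), beside −0.032 for all genes. The share above the input was near that of all genes. The input had no replicate, so no test was run.

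For scale, the median log2 ratio was 5.53 for the 10 cholinergic markers, −3.39 for oligodendrocyte markers and 0.20 for the 11 replication-independent histone genes. Among these, H2afy, which encodes macroH2A, had 1.39 ± 0.13 and H3f3b 0.77 ± 0.24. The most abundant replication-dependent genes lay in the same range: Hist1h1e at 1.01 ± 0.16, Hist1h4d at 0.75 ± 0.18 and Hist3h2ba at 0.63 ± 0.09. The highest ratios were those of Hist1h4a (1.59 ± 0.47), Hist1h1a (1.44 ± 0.42), the H2A gene Hist1h2ac (1.30 ± 0.35) and the H4 gene Hist1h4h (1.23 ± 0.38), all above the input in each saline library. Hist1h4a, Hist1h2ac and Hist1h4h had 9, 12 and 11 counts in the input and were kept through their saline counts alone. Their place at the top therefore rests partly on the filter.

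The lowest ratios came from members of the same types. Hist1h4k, an H4 gene, measured 0.0390, 0.127 and 0.119 CPM in the saline libraries and 1.56 CPM in the input, which rests on 10 counts against 64 (input 15.5-fold higher, 95% counting interval 7.91 to 33.9). Hist1h4j, another H4 gene, had 10 counts against 20 (4.85-fold, 2.17 to 11.6). Ratios of H4 genes thus ran from 1.59 to −4.22 on the log2 scale. Hist1h4k and Hist1h4j were kept through their input counts alone, so the ends of this range rest partly on the filter. Hist1h1d stood at −1.95 ± 0.49 and Hist1h2bc at −1.42 ± 0.10, while Hist1h1e and Hist1h1a, also of H1, were above the input.

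An annotated span of 1 kb or more was found for 5 of the 61 genes, a split made after the values had been seen. Of these, Hist1h2bc, Hist1h2be (−0.63 ± 0.24) and Hist2h2be (−0.24 ± 0.18) were among the 29 genes kept, and lay below the input in all 3 saline libraries. Hist1h2bp and Hist1h2br, with 29 counts and 1 count in the 9 immunopurified libraries together, fell under the minimum of 20 counts. All 5 together summed to 18.4 to 21.6 CPM in saline libraries and 33.3 CPM in the input. The shorter genes without Hist1h4d summed to 83.8 to 103 CPM and 69.3 CPM. Against the same input, the log2 ratio of the histone sum was −0.66 in cocaine library 2, 0.98 in cocaine library 1 and between −0.0028 and 0.74 in the other cocaine and yoked libraries.

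**Figure D5:**
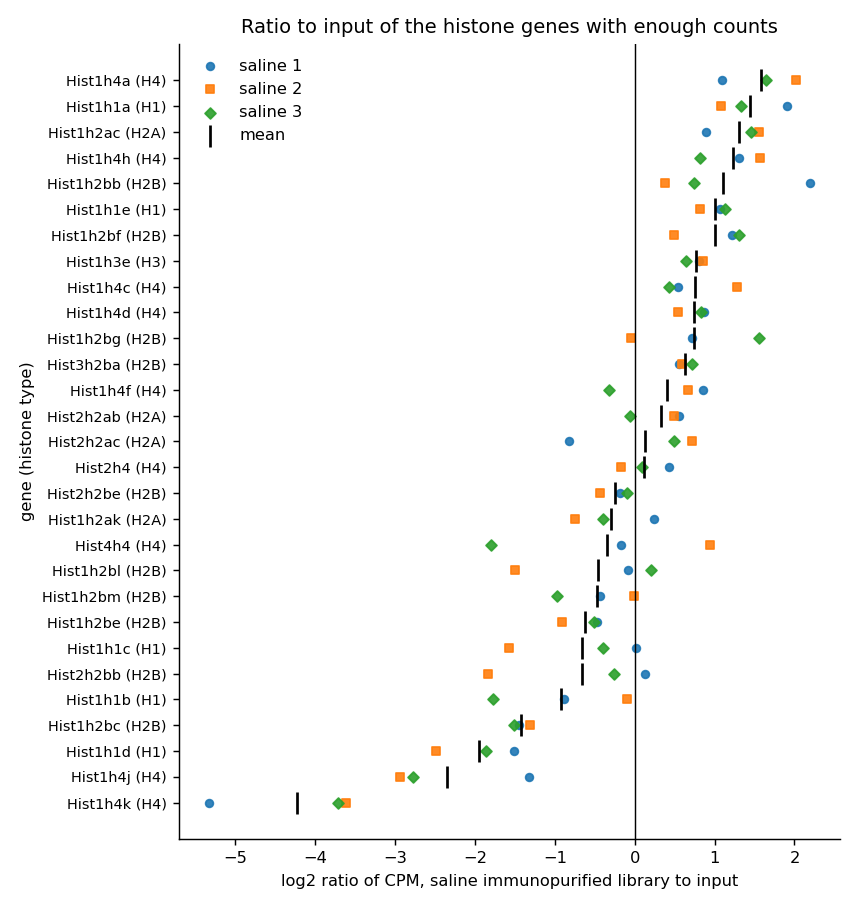
Points give how far each saline library lay from the input, as the log2 of CPM after immunopurification over CPM in the input, for the 29 histone genes with enough counts, sorted by their mean (vertical tick). Hist1h4a has the highest mean at 1.59 and Hist1h4k the lowest at −4.22, and both encode H4. Hist1h4a was kept through its saline counts alone and Hist1h4k through its input counts alone.

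Genes around the histone messages showed no called change either. Of 18 genes of histone message processing and decay, 0 passed in any comparison, with median log2 fold changes of 0.037, 0.027 and −0.025 for cocaine against saline, cocaine against yoked and yoked against saline. Slbp, the stem-loop binding protein, was at 13.6 to 23.6 CPM in the 9 libraries. Eri1, an exonuclease that trims histone messages, measured 17.4 ± 7.93 CPM in saline and 10.6 ± 4.12 CPM after cocaine (adjusted p = 0.850, edgeR). Casp8ap2, a nuclear factor needed for histone gene expression, was at 34.9 ± 8.89 CPM after cocaine and 27.5 ± 4.25 CPM in yoked libraries (adjusted p = 0.9997, edgeR). The 2 smallest p values of the list belonged to these genes.

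Among the 11 replication-independent histone genes 0 were called, and the medians were −0.0082, −0.092 and 0.046. H2afj was at 17.9 ± 6.47 CPM in saline and 23.5 ± 3.16 CPM in yoked, and H2afv at 31.6 ± 5.77 CPM in saline and 26.3 ± 1.99 CPM after cocaine. Of the 18 tested chaperone genes 0 were called, with medians of 0.091, 0.044 and 0.048. The chaperone Daxx was at 21.2 ± 6.12 CPM in saline and 30.3 ± 10.05 CPM in yoked, and Npm1 at 124 ± 25.5 CPM in saline and 161 ± 40.5 CPM after cocaine. For S phase and proliferation, 19 of 22 genes were tested, 0 were called and 2 had an unadjusted p under 0.05, both in cocaine against saline, where 5.28% of all genes did. These were E2f1, a transcription factor of S phase entry, at 1.25 ± 0.28 CPM in saline and 3.78 ± 1.53 CPM after cocaine, and the cyclin Ccna2, at 0.706 ± 0.391 and 2.08 ± 0.883 CPM (adjusted p = 0.850 for both, edgeR). Within the cocaine group the summed list varied by 0.549%.

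Of noncoding RNAs listed as lacking a conventional poly(A) tail, 5 of 10 were in the tables and 2 were tested. Malat1, a nuclear RNA, measured 352 to 825 CPM after immunopurification and 21553 CPM in the input, a log2 ratio of −5.58 ± 0.31. Its level in the treatment groups was 459 ± 93.2 CPM in saline, 620 ± 207 CPM in cocaine and 672 ± 228 CPM in yoked (adjusted p = 0.850 for cocaine and 0.999 for yoked against saline, edgeR). The list summed to 353 to 826 CPM after immunopurification and 21564 CPM in the input, so nearly all of it was Malat1. In cocaine libraries 1 to 3 the sum was 409, 630 and 823 CPM. The library highest in histone reads was thus the lowest of the group for this RNA.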

How the data were processed

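Raw read counts per gene symbol were deposited by the authors as 1 table for each of 10 libraries. Per the submitters' processing notes, STAR 2.0.0e, HTSeq and the mouse build mm10 were used. The annotation, strand setting and library chemistry (poly(A) selection or not) are not given in the sources used here, so reads of overlapping or antisense partners may be mixed. Rows of unassigned reads and a row named unknown were left out of library totals.

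Levels are counts scaled to a total of 1000000 over all gene rows (CPM), and mean log2 levels use a pseudocount of 0.1. All 9 immunopurified libraries entered 1 fit of edgeR 4.0.16 in R 4.3.3 (quasi-likelihood F-test, robust, TMM scaling, minimum count 10, minimum total 15), which tested 14989 genes with 6 residual degrees of freedom. Genes were called at an adjusted p under 0.05 (Benjamini-Hochberg over all genes tested), and DESeq2 1.42.0 was an alternative. Ratios to the input kept genes with at least 20 counts in the input or in the mean saline library. Counting intervals (95%, exact) and the floor of 3 counts cover counting error only, since reads carry no molecular identifiers. The edgeR steps were tested on simulated data. Alternatives covered scaling, filter, tool, count minimum, pseudocount, a replicate block, the groups in the fit and each library left out.

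The histone genes and the other lists were chosen with earlier results of these data known. Named were the 10 highest in CPM, the highest of each type, the 3 smallest p in each direction per comparison, and the 4 highest and 4 lowest ratios to input. From every other list up to 2 genes with the smallest p were named, and others (Slbp, H3f3b, H2afy, the germ-line histones, the divergent pairs named, the long-span split and the printed octamer gene) were chosen after their values were seen. Symbols were matched to the RefSeq gene and promoter tables of GRCm38.p6: all 61 genes had coordinates and 55 a promoter window.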

Additional observations from a re-analysis of the deposited data

How the results depend on the processing

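No histone gene was called under any alternative tried. Without a filter on low counts 60, 27 and 18 genes of the series were called in cocaine against saline, cocaine against yoked and yoked against saline. The median log2 fold change of the histone genes, with each library left out, ranged from −0.77 to 0.16 in cocaine against saline, −0.86 to −0.071 in cocaine against yoked and 0.019 to 0.35 in yoked against saline. Against the input, a minimum of 100 counts gave a median of −0.24 with 4 genes above and 4 below, all 9 immunopurified libraries gave 3 above and 5 below, and the median ranged from 0.17 to 0.34 with a saline library left out (12 to 13 above, 9 to 11 below). Without Hist1h4d the summed level averaged 115 CPM in saline and 119 CPM in yoked.

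With single libraries left out, log2 fold changes that changed sign ranged, in cocaine against saline, from −0.14 to 1.22 (Hist1h1d), −0.49 to 0.19 (Hist1h1e), −0.80 to 0.17 (Hist1h4d) and −0.59 to 0.16 (Hist3h2ba). In cocaine against yoked they ranged from −0.025 to 1.33 (Hist1h1a), −0.33 to 0.34 (Hist1h1e), −0.88 to 1.03 (Hist1h2bf), −0.92 to 0.035 (Hist1h4d) and −0.50 to 0.25 (Hist3h2ba), and in yoked against saline from −0.28 to 0.085 (Hist3h2ba). Hist1h2bc kept its sign in cocaine against yoked with each library left out (0.13 to 0.66). Without the 3 libraries numbered 2, cocaine against saline was 0.090 for Hist1h1e, 0.057 for Hist1h4d and 0.12 for Hist3h2ba, cocaine against yoked −0.025 for Hist1h2bc and 0.011 for Hist1h4d, and yoked against saline 0.056 for Hist3h2ba. The cause was not tested.

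Whether library numbers pair the libraries is not settled: the labels do not say so, and same-numbered deviations correlated at 0.070 to 0.17, against −0.15 to 0.048 for other numbers, with the best match to the own number in 18 of 18 checks. They were not treated as pairs, since not all correlations passed 0.1. With the replicate block 0 genes were called, the medians were −0.21, −0.53 and 0.16, and Hist3h2ba was −0.021 in cocaine against yoked.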
